A study of Mus musculus with 8 samples.

Results

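Stra8, a gene that germ cells switch on as they enter meiosis, and the genes that carry, sense and remove retinoic acid were followed in mouse bulk RNA-seq libraries of primordial germ cell-like cells (PGCLCs) made in culture and of primordial germ cells (PGCs) from the fetal ovary. The set was chosen by gene name and held 10 genes: Stra8, the retinoic acid receptors Rara, Rarb and Rarg, the retinoid X receptors Rxra and Rxrb, the retinoic acid hydroxylases Cyp26a1 and Cyp26b1, and the cellular retinoic acid binding proteins Crabp1 and Crabp2. Of these, 9 had a row among the 21950 genes of the count table, and Rxrb was not analysed here. In short, 7 of the 9 were lower in PGCLCs than in PGCs, none was higher (by edgeR, by DESeq2 and at an unadjusted p under 0.05 alike), and Rxra and Cyp26a1 did not pass the test. For comparison, 15.4% of all genes were called lower and 16.1% higher.

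Retinoic acid is made from vitamin A by oxidation in steps, first to retinal by retinol dehydrogenases and then to the acid by retinal dehydrogenases. It enters the nucleus with the help of binding proteins and acts on heterodimers of a retinoic acid receptor and a retinoid X receptor, which sit on DNA in its absence as well and then hold corepressors. Enzymes of the CYP26 family oxidise it further and so end the signal. In the fetal ovary germ cells leave the mitotic cycle for meiosis soon after the gonad forms, and Stra8, named for its stimulation by retinoic acid, is among the first genes to mark that step.

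Each group had 4 pools of cells from independent experiments, with 30000 to 340000 cells in a pool. The d6PGCLC pools came from a female iPSC line, BVSC-iPSC, which carries the reporters Blimp1-Venus and Stella-ECFP, named for the genes Prdm1 and Dppa3. These cells were taken at day 8 of the culture, 6 days after induction from epiblast-like cells in a medium whose listed factors are BMP4, SCF, LIF and EGF, by sorting for both reporters, so that all 4 pools stand for a single line. The E12.5 PGC pools were sorted from gonads of female C57BL/6J fetuses at E12.5 by SSEA1 and integrin β3, without any reporter. The paper likens d6PGCLCs to migrating PGCs, an earlier stage than the gonadal PGCs sorted here. Strain, sort, developmental stage and origin (culture or fetus) all changed together between the groups and cannot be told apart. The libraries held 7991437 to 12024841 counts, and 3 counts, taken as the limit of detection, corresponded to 0.249 to 0.383 CPM (counts scaled to a library of fixed size).

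Germ cell markers were present in both groups but not at equal levels. Dppa3, Prdm1, Prdm14, Tfap2c and Pou5f1 were called higher in d6PGCLCs, whereas Dazl, Ddx4, Fut4, Itgb3 and Dnd1 were called lower, with log2 fold changes of -5.07, -4.42, -3.48, -0.72 and -0.59. Kit and Nanos3 did not pass the test. Itgb3 encodes integrin β3, by which the PGCs were sorted together with SSEA1, and the reporters of the d6PGCLCs are named for Prdm1 and Dppa3. The 12 germ cell markers together reached 4156 to 4752 CPM in d6PGCLCs and 4814 to 5411 CPM in E12.5 PGCs. Markers of gonadal somatic cells were low in every library but not equally so. The 13 that were in the table summed to 0.664 to 2.18 CPM in d6PGCLCs and to 4.96 to 10.2 CPM in E12.5 PGCs, 7 of them were called lower in d6PGCLCs, where 15.4% of all genes were, and Emx2 and Tcf21 had no count in any d6PGCLC library. None of the 13 reached a mean of 1 CPM. Other marker lists differed in what they showed. The 3 mesonephros markers summed to 0.332 to 0.814 CPM in d6PGCLCs and 3.41 to 6.14 CPM in E12.5 PGCs, with 1 called lower, and the 6 mesoderm and endoderm markers to 1.66 to 2.68 CPM and 10.7 to 15.6 CPM, with 5 called lower. The sum of the 5 blood cell markers was higher in every d6PGCLC pool than in any E12.5 PGC pool, at up to 17.4 CPM against at most 4.21 CPM, with 2 called higher. The sums of the 5 endothelial markers overlapped, with 1 called higher, and of all genes 16.1% were called higher. None of the 7 steroidogenic and Sertoli cell markers was called by edgeR, at an unadjusted p under 0.05 or in any alternative that could be computed for it, and their sums overlapped (6.31 to 8.04 CPM and 5.51 to 7.79 CPM). Of the 5 markers of epiblast and epiblast-like cells 3 were called lower and 1 higher, where 25.6% and 28.1% of genes whose mean reached 1 CPM were. Their sums overlapped as well (21.5 to 36.4 CPM and 27.9 to 38.6 CPM). The part of other cells in the results of the members was not tested. In bulk RNA, fewer cells of a kind and less RNA per cell cannot be told apart. A pair of E12.5 PGC libraries stood apart in other genes. Replicate 4 held 99 counts over 7 Y-linked genes, where the other libraries had none. Replicate 2 had 144 CPM of the heat shock gene Hspa1a against 4.42 to 20.3 CPM in the other PGC pools. In d6PGCLCs Hspa1a was at 0.305 to 0.747 CPM, so that every PGC pool was above every d6PGCLC pool. Whether this difference bears on the members was not tested.

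Stra8 (Entrez 20899, GRCm38 chr6:34920163-34939344) was close to the limit in d6PGCLCs, with 0, 0.204, 0.664 and 0.364 CPM in replicates 1 to 4, that is 0, 2, 8 and 3 counts. In E12.5 PGCs it stood at 20.5, 2.74, 18.9 and 3.70 CPM, from 164, 26, 205 and 41 counts. The groups did not overlap, but the PGC pools fell far apart from each other, with replicates 1 and 3 high and replicates 2 and 4 low. Replicates 2 and 4 also stood apart in other genes, but in different ones, Hspa1a in replicate 2 and Y-linked genes in replicate 4. A link with Stra8 was not tested. The means were 0.308 ± 0.28 CPM and 11.4 ± 9.53 CPM (SD, n = 4 each). Stra8 was therefore lower in d6PGCLCs by a log2 fold change of -5.02 (SE 0.867, edgeR quasi-likelihood adjusted p = 3.77e-06), the largest change of any member whose fold could be given. Without each library in turn the log2 fold change lay between -5.79 and -4.60, and without PGC replicates 2 and 4 together it was -5.81.

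**Figure D1:**
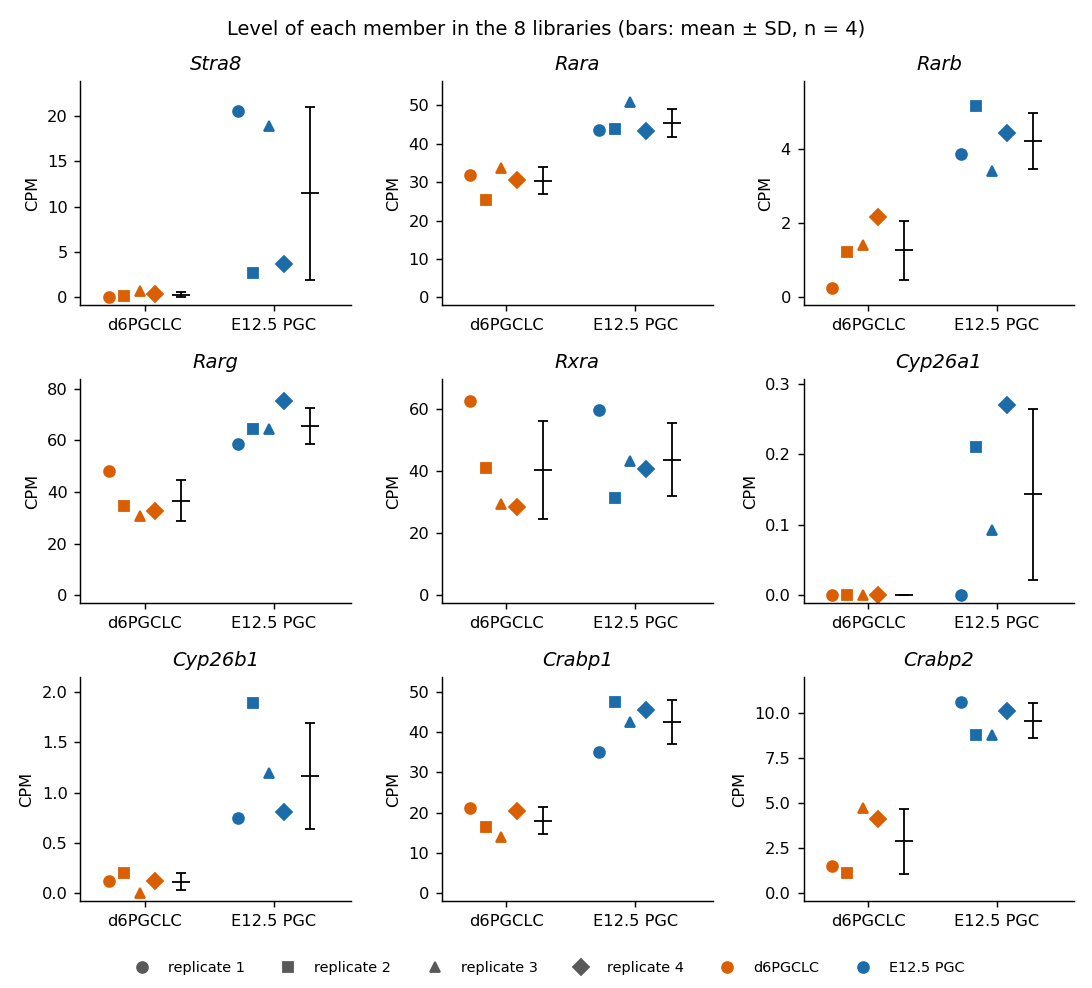
Level of the 9 measured members in CPM (linear axes from 0, a scale for each gene), with a symbol for each replicate and the mean ± SD of 4 pools beside each group. Stra8 spreads from 2.74 to 20.5 CPM among the E12.5 PGC pools, while Rara, Rarg, Crabp1 and Crabp2 form tight groups there, and for Rxra the groups overlap.

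The spread of Stra8 among the PGC pools was itself unusual among expressed genes. The highest pool was 7.48 times the lowest, the coefficient of variation was 83.3%, and this ranked 17th of the 11339 genes whose mean in E12.5 PGCs reached 1 CPM, whose median was 11.0%. For the other members whose mean there reached 1 CPM the coefficient of variation ran from 8.07% for Rara to 45.2% for Cyp26b1.

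Genes with a like profile were sought over all 8 libraries by the root-mean-square difference of mean-centred log2(CPM + 0.5), among the 11480 other genes whose mean reached 1 CPM. The nearest were Galnt16 (0.66), Gm1141 (0.69), Lonrf2 (0.75), Ntm (0.76) and Col6a6 (0.76). Lonrf2, for example, had 39.4, 15.3, 37.3 and 23.4 CPM in PGC replicates 1 to 4 and 0.747 to 1.94 CPM in d6PGCLCs. All 5 were higher in PGC replicates 1 and 3 than in replicates 2 and 4, but by less than Stra8, since their highest pool was 1.68 to 2.96 times their lowest. The 5 were chosen for likeness over these same 8 libraries, so that a shared order of the pools follows largely from the choice. These points also share their libraries and depth, so that the likeness is a description only.

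Early meiotic genes did not all follow Stra8 from pool to pool. Sycp1, a protein of the synaptonemal complex, had 37.4, 18.4, 32.3 and 21.0 CPM in PGC replicates 1 to 4. Rec8, the meiotic cohesin subunit, had 76.9, 37.3, 61.9 and 43.5 CPM, and so was also higher in replicates 1 and 3. Sycp3, of the chromosome axis, had 32.3, 33.5, 37.6 and 35.5 CPM and did not share that order. Hormad1, Spo11 and Stag3 were as even, with the highest pool 1.25, 1.14 and 1.15 times the lowest.

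**Figure D2:**
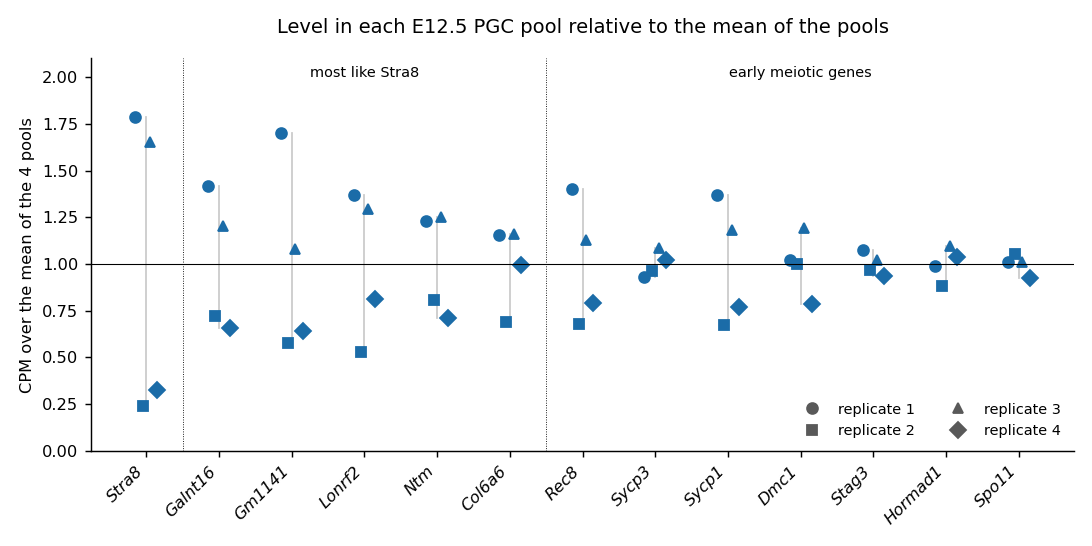
Level in each E12.5 PGC pool divided by the mean of the 4 pools (linear axis) for Stra8, for the 5 genes most like it and for 7 early meiotic genes, with a symbol for each replicate. The highest pool is 7.48 times the lowest for Stra8, 2.06 times for Rec8, 2.03 times for Sycp1 and 1.16 times for Sycp3.

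The sequence before the Stra8 start is shown because the receptors are known to bind pairs of a short hexamer. The search was for the hexamer AGGTCA and for a variant AGTTCA, for a variant GGGTCA and for a variant GGTTCA, on both strands, alone or as a direct repeat with 1, 2 or 5 bases between, in the 250 bases before each start. The window of Stra8, from the RefSeq promoters of GRCm38.p6 (chr6:34920698-34920947, plus strand), lies before a start 785 bases inside the gene span given above, and is printed 5′ to 3′ with each hexamer in capitals.

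Stra8: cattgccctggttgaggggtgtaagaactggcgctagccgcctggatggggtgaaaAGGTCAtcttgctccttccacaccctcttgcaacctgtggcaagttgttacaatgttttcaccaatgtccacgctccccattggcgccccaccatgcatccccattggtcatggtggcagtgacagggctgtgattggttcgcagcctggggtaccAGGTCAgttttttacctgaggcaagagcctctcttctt

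It held AGGTCA at bases -194 to -189 and at -38 to -33 before the start, both on the sense strand, and no direct repeat. Of all 32851 promoter windows of this length, 38.6% held at least 1 hexamer and 9.75% at least 2, so that such a window is common. CACGTG, the site of MAX-type factors, was not in this window and was in 6.02% of all windows. A match of letters does not show binding.

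The 3 retinoic acid receptors were all lower in d6PGCLCs. Rara (Entrez 19401, chr11:98927800-98974942), the receptor found in most cell types, had 31.8, 25.5, 33.7 and 30.7 CPM in d6PGCLCs and 43.5, 43.8, 50.9 and 43.4 CPM in E12.5 PGCs. Every PGC pool was above every d6PGCLC pool, and the log2 fold change was -0.58 (SE 0.124, edgeR adjusted p = 0.000838). Rarg (Entrez 19411, chr15:102234938-102257522) had 48.2, 34.7, 30.6 and 32.7 CPM in d6PGCLCs and 58.5, 64.2, 64.5 and 75.2 CPM in E12.5 PGCs. These groups did not overlap either, with d6PGCLC replicate 1 nearest to the PGCs, and the log2 fold change was -0.85 (SE 0.136, edgeR adjusted p = 3.58e-05).

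Rarb (Entrez 218772, chr14:16430839-17082331), itself a classic target gene of retinoic acid, was the scarcest of the 3 retinoic acid receptors. It had 0.255, 1.22, 1.41 and 2.18 CPM in d6PGCLCs and 3.87, 5.16, 3.41 and 4.42 CPM in E12.5 PGCs. The groups were apart, although the d6PGCLC pools differed among themselves by 8.55 times from lowest to highest, on 2 to 18 counts. The log2 fold change was -1.71 (SE 0.371, edgeR adjusted p = 0.000749), and it passed -2 when d6PGCLC replicate 4 was left out (-2.04). Exons of Rarb in GENCODE overlap exons of Gm48162 and Top2b on the other strand, and whether the counting used strand is not given in the sources used here. Top2b itself differed by a log2 fold change of -0.03 (SE 0.17, edgeR adjusted p = 1).

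A Rarb promoter, at a start 506855 bases inside the gene span, is shown because it was one of the member windows with a direct repeat (chr14:16575477-16575726, minus strand, RefSeq, GRCm38.p6, hexamers in capitals, 5′ to 3′).

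Rarb: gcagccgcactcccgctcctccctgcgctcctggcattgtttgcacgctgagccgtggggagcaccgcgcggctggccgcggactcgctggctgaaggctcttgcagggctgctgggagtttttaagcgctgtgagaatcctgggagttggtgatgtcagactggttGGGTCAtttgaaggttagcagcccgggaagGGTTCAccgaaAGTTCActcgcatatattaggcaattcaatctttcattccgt

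The repeat GGTTCACCGAAAGTTCA, with 5 bases between its hexamers, lay at bases -53 to -37 on the sense strand, and a further GGGTCA at -83 to -78. A repeat with 5 bases between was in 0.0883% of all windows and a repeat with 1, 2 or 5 bases between in 0.426%.

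Rxra (Entrez 20181, chr2:27676445-27763319), the common partner in receptor heterodimers, was the receptor that did not pass the test. It had 62.5, 40.9, 29.5 and 28.5 CPM in d6PGCLCs and 59.6, 31.3, 43.2 and 40.7 CPM in E12.5 PGCs, so that replicate 1 was highest in both groups and the groups overlapped throughout. The log2 fold change was -0.12 with a 95% interval from -0.52 to 0.29 (edgeR adjusted p = 0.868). Its sign turned without d6PGCLC replicate 3 (0.01), without d6PGCLC replicate 4 (0.017) and without PGC replicate 1 (0.066). Rxrg, the third retinoid X receptor, was at most 0.97 CPM in any library.

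The binding proteins were both lower in d6PGCLCs. Crabp1 (Entrez 12903, chr9:54764748-54773110), which holds retinoic acid in the cytoplasm, had 21.2, 16.6, 14.1 and 20.4 CPM in d6PGCLCs and 35.1, 47.5, 42.5 and 45.4 CPM in E12.5 PGCs. The lowest PGC pool was well above the highest d6PGCLC pool, and the log2 fold change was -1.25 (SE 0.149, edgeR adjusted p = 9.07e-07). Crabp2 (Entrez 12904, chr3:87948693-87953372), which delivers retinoic acid to the receptors, had 1.53, 1.12, 4.73 and 4.12 CPM in d6PGCLCs and 10.6, 8.73, 8.76 and 10.1 CPM in E12.5 PGCs. The PGC pools were even, whereas d6PGCLC replicates 3 and 4 were higher than replicates 1 and 2, and the log2 fold change was -1.70 (SE 0.314, edgeR adjusted p = 0.000159). Without each library in turn it ranged from -2.10 to -1.43.

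The hydroxylases that break retinoic acid down were scarce in both groups. Cyp26b1 (Entrez 232174, chr6:84571414-84593908) had 0.128, 0.204, 0 and 0.121 CPM in d6PGCLCs, from 1, 2, 0 and 1 counts. In E12.5 PGCs it had 0.749, 1.89, 1.20 and 0.812 CPM, from 6, 18, 13 and 9 counts. All d6PGCLC pools were within the limit of 3 counts, so that Cyp26b1 was at least 3.58-fold lower there (edgeR adjusted p = 0.000467). In the fetal gonad Cyp26b1 is also a gene of somatic cells. Of the 13 gonadal somatic markers given above, 7 were called lower in d6PGCLCs and 6 were not called. The part of somatic cells in the result of Cyp26b1 was not tested. Wnt4, a signal of the somatic cells of the ovary, had 0.903 to 1.62 CPM in E12.5 PGCs and 0 to 0.364 CPM in d6PGCLCs.

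Cyp26a1 (Entrez 13082, chr19:37697738-37701536) had no count in any d6PGCLC pool and 0, 2, 1 and 3 counts in the PGC pools. Both groups were within the limit, so that no fold is given, and the gene did not pass the test (edgeR quasi-likelihood adjusted p = 0.0746). With the likelihood ratio test of edgeR the adjusted p was 0.0209. Its promoter, at a start 70 bases inside the gene span, is shown as the other member window with a direct repeat (chr19:37697558-37697807, plus strand, RefSeq, GRCm38.p6, hexamers in capitals as they read on the printed strand).

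Cyp26a1: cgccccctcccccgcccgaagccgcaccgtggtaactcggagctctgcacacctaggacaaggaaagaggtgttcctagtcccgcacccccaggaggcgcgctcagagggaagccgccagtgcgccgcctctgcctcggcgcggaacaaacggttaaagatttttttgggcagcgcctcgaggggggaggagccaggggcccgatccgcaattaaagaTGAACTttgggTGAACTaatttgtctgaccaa

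The repeat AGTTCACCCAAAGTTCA, again with 5 bases between, lay at bases -32 to -16 on the antisense strand, close to the start. Promoter windows were at hand for 9 of the 10 members, 15 windows in all, and Rarb and Cyp26a1 were the members with a direct repeat. CACGTG was in 1 window of Rara, at bases -10 to -5. Rarb and Cyp26a1, which share this element, stood at different levels per length, since Rarb had 1.02 to 1.53 CPM per kb in the PGC pools and Cyp26a1 at most 0.131 CPM per kb.

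Levels of different genes were compared per kilobase of exon. In E12.5 PGCs the order of the mean levels was Crabp1 (44.3 CPM per kb), Rarg (19.5), Rara (13.0), Crabp2 (9.01), Rxra (7.96), Stra8 (5.36), Rarb (1.25), Cyp26b1 (0.221) and Cyp26a1 (0.0696). The pools of Crabp1, Rarg, Rara and Crabp2 were apart at each step of that order, whereas Crabp2 overlapped with Rxra, Rxra with Stra8 and Stra8 with Rarb. Below these, Rarb was again apart from Cyp26b1. Cyp26a1 was within the limit of 3 counts in every pool, so that its distance from Cyp26b1 cannot be read. In d6PGCLCs the order was Crabp1 (18.8 CPM per kb), Rarg (10.9), Rara (8.69), Rxra (7.36), Crabp2 (2.71), Rarb (0.377), Stra8 (0.144), Cyp26b1 (0.0215) and Cyp26a1 (0). Here Rarg, Rara and Rxra overlapped with their neighbours, as did Rarb, Stra8, Cyp26b1 and Cyp26a1, while Crabp1 stood above Rarg and Crabp2 stood between the groups of neighbours without overlap. Stra8 thus ranked above Rarb by its mean in PGCs and below it in d6PGCLCs, with overlap in both.

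**Figure D3:**
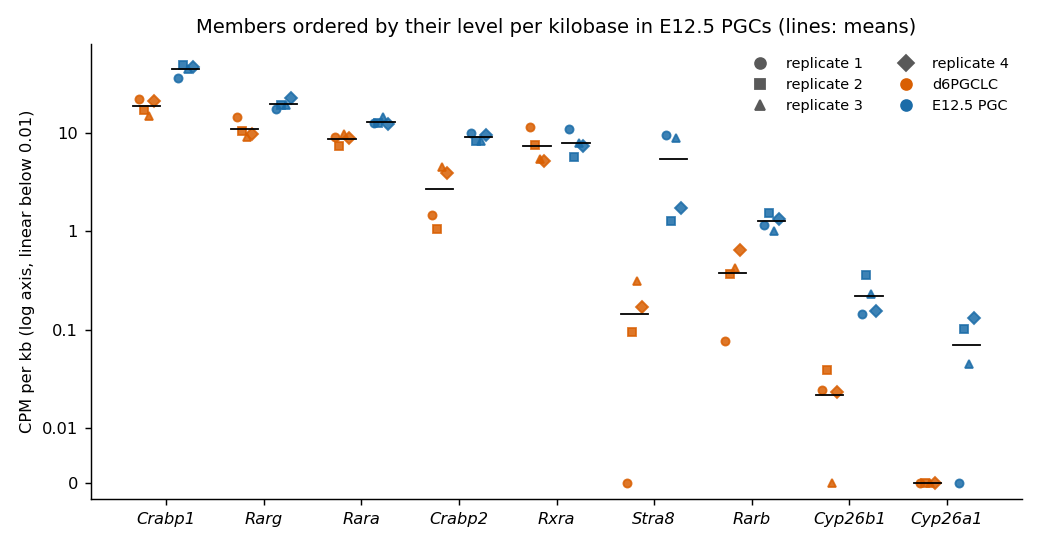
Level per kilobase (CPM per kb, logarithmic axis that is linear below 0.01) of the members in each library, ordered by their mean in E12.5 PGCs, with a line at the mean of 4 pools. Crabp1 leads in both groups, at 18.8 and 44.3 CPM per kb, and the hydroxylases are lowest.

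Across the table, 15.4% of all 21950 genes were called lower in d6PGCLCs at an adjusted p of at most 0.05 and 16.1% were called higher, against 7 of 9 members lower and 0 higher. Among the 11487 genes whose mean reached 1 CPM these shares were 25.6% and 28.1%, and of the 7 members among them 6 were lower. The groups did not overlap for the same 7 members, each with an exact 2-sided permutation p of 0.0286, the smallest that 4 against 4 pools allow, and 14.8% of all genes were lower without overlap and 15.4% higher. Where the log2 fold change also had to reach 2 in size, 2 members passed in the quasi-likelihood test, Stra8 and Cyp26b1, where 3.37% of all genes were called lower and 3.24% higher. Cyp26b1 passed by its fitted fold, while its bound of at least 3.58-fold does not reach that size. With the likelihood ratio test, the kind the study used, 3 passed, as Cyp26a1, within the limit in both groups, was added. Without d6PGCLC replicate 3 Crabp2 (-2.10) was added and without d6PGCLC replicate 4 Rarb (-2.04), which again made 3. The median log2 fold change of the 9 members was -1.70, or -1.25 with Cyp26b1 at its bound and Cyp26a1 at 0, beside -0.03 for all 17010 genes with a count. Summed over the members, d6PGCLC pools had 114.8 to 165.7 CPM and PGC pools 205.4 to 233.4 CPM.

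**Figure D4:**
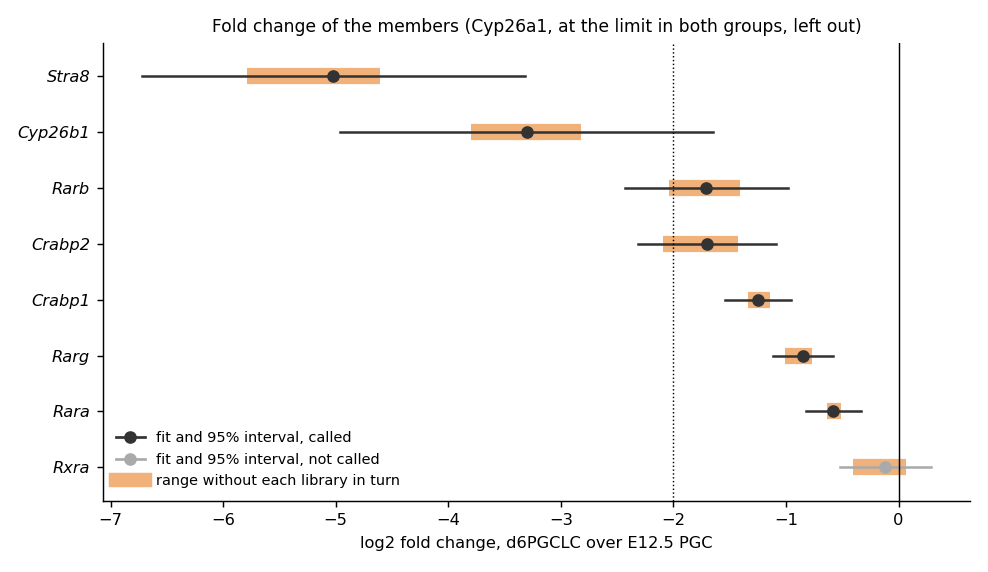
Log2 fold change of d6PGCLCs over E12.5 PGCs (points), its 95% interval (lines) and its range when each library is left out in turn (bars) for the 8 members with an interval, with a dotted line at -2. All intervals but that of Rxra, which runs from -0.52 to 0.29, lie below 0, and Cyp26b1, within the limit in d6PGCLCs, is drawn as fitted, which is no bound.

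The genes that make and carry retinoic acid had calls in both directions. Of 22 such genes on a list of the wider pathway, 21 were in the table, 6 were called lower in d6PGCLCs, 5 higher and 10 not called, and Aldh1a2, which makes most retinoic acid in the embryo, was not analysed here. Over all genes 15.4% were lower and 16.1% higher. Of the 8 whose mean reached 1 CPM, 2 were called lower and 5 higher, where 25.6% and 28.1% of such genes were. Rdh10, the retinol dehydrogenase of the embryo, was lower, at 3.46 to 4.85 CPM in d6PGCLCs and 11.5 to 17.0 CPM in PGCs (log2 fold change -1.68, SE 0.2, edgeR adjusted p = 7.49e-07). Adh1, Aldh1a1, Aldh1a3 and the retinol receptor Stra6 were called lower from few counts, with all d6PGCLC pools within the limit. Adh1 was at least 3.96-fold, Aldh1a3 at least 1.73-fold and Aldh1a1 at least 1.42-fold lower, while Stra6 was within the limit in both groups and has no fold. Aldh1a1 had no count in PGC replicate 4 either, so that its groups overlapped. The call of Stra6 held in 12 of 17 alternative analyses.

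Genes of the opposite direction included those that store retinol or offer retinoic acid another receptor. Lrat, which esterifies retinol for storage, had 12.4 to 14.5 CPM in d6PGCLCs and 1.81 to 2.74 CPM in PGCs (log2 fold change 2.66, SE 0.218, edgeR adjusted p = 2.68e-09). Fabp5, a fatty acid binding protein that can carry retinoic acid to PPARδ, had 37.1 to 53.8 CPM against 1.72 to 3.05 CPM (log2 fold change 4.19, SE 0.204, edgeR adjusted p = 8.69e-13). Ppard, the gene of that receptor, had 65.0 to 95.1 CPM against 26.3 to 32.7 CPM (log2 fold change 1.43, SE 0.128, edgeR adjusted p = 1.44e-08). The dehydrogenases Rdh11 and Dhrs4 were also higher, by log2 fold changes of 1.05 and 0.57. Crabp2 and Fabp5, the carriers to either kind of receptor, thus differed between the groups in opposite directions.

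Genes known to respond to retinoic acid elsewhere in the embryo had calls in both directions. Of 18 on the list, 15 were in the table, 4 were called lower and 4 higher, where 15.4% and 16.1% of all genes were. Of the 8 whose mean reached 1 CPM, 2 were lower and 4 higher, where 25.6% and 28.1% of such genes were. Cdx1, a homeobox gene with a retinoic acid response element, had 3.65 to 4.24 CPM in d6PGCLCs and 7.86 to 11.4 CPM in PGCs (log2 fold change -1.34, SE 0.205, edgeR adjusted p = 1.97e-05). Zfp703, Fgf8 and Stra6 were the others called lower. Tgm2, a transglutaminase induced by retinoic acid in many cells, had 12.7 to 33.7 CPM in d6PGCLCs and 4.61 to 6.52 CPM in PGCs (log2 fold change 1.89, SE 0.258, edgeR adjusted p = 5.13e-06). Rai14 and Rec8 were also higher, and Hoxb1 and Hoxb5 had no count in any library. Dhrs3, which converts retinal back to retinol and is a common response gene, was not above 0.499 CPM in any library.

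Of the 15 coregulators of the receptors in the table, 4 were called lower and 1 higher, where 25.6% and 28.1% of genes whose mean reached 1 CPM were. The log2 fold changes of the lower ones ran from -0.61 for Crebbp to -0.30 for Tbl1x, and that of Kat2b, the higher one, was 0.66. Without d6PGCLC replicate 4, PGC replicate 1 or PGC replicate 3 1 was called lower, without d6PGCLC replicate 2 or 3 there were 2, and without d6PGCLC replicate 1 there were 6. The corepressor Ncor1 had a log2 fold change of 0.18 and was not called.

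Genes around Stra8 at meiotic entry are given by role, and the roles were not compared by a test. Of 9 early meiotic genes, 7 were in the table, of which 6 were called lower in d6PGCLCs and Rec8 higher, beside 25.6% and 28.1% of genes whose mean reached 1 CPM. Hormad1, of the meiotic chromosome axis, had 3.48 to 7.02 CPM in d6PGCLCs and 66.0 to 82.2 CPM in PGCs (log2 fold change -4.01, SE 0.18, edgeR adjusted p = 4.69e-13). Sycp1, Sycp3, Spo11, Stag3 and Dmc1 had log2 fold changes of -2.58, -1.73, -2.87, -1.25 and -0.82. Rec8, which is known to respond to retinoic acid beside Stra8, had 84.5 to 101 CPM in d6PGCLCs and 37.3 to 76.9 CPM in PGCs (log2 fold change 0.75, SE 0.159, edgeR adjusted p = 0.000764). The direction of Rec8 was thus opposite to that of Stra8, although both were higher in PGC replicates 1 and 3 than in the other PGC pools.

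Of 7 measured genes that prepare germ cells for Stra8, 3 were called lower, 2 higher and 2 not, beside the same 25.6% and 28.1%. Dazl, the RNA-binding protein that gives germ cells the competence for meiosis, had 17.8 to 63.9 CPM in d6PGCLCs and 1018 to 1580 CPM in PGCs (log2 fold change -5.07, SE 0.262, edgeR adjusted p = 2.45e-11). Msx1, a homeobox target of BMP signals, had 1.58 to 2.30 CPM against 14.7 to 21.0 CPM (log2 fold change -3.35, SE 0.222, edgeR adjusted p = 8.02e-11), whereas its relative Msx2 was called higher by 0.25. The BMP receptor gene Bmpr1a was the other lower one (-0.36) and Smad1, of the same signal, the other higher one (0.56). The calls of Msx2 and Pcgf6 held in 8 of 19 alternative analyses each, and without PGC replicate 3 the count of the whole list called higher was 3 in place of 6. A further 8 genes were listed for restraint of meiotic genes in at least some germ cells, a role not tested here. They included Dmrt1, which was not called. Of these 8, 3 were called higher and 0 lower, all among the 7 whose mean reached 1 CPM. Of all such genes 28.1% were higher and 25.6% lower. The 3 higher ones were Max, Ezh2 and Pcgf6, by log2 fold changes of 0.53, 0.36 and 0.24. Max, the partner of Mga in a repressor complex on germline genes, had 190 to 212 CPM in d6PGCLCs and 137 to 145 CPM in PGCs (SE 0.0843, edgeR adjusted p = 3.21e-05), while Mga did not pass the test (log2 fold change -0.43, edgeR adjusted p = 0.0574). Mga stayed uncalled in 12 of 19 alternative analyses and was called lower in the rest. Nanos2, which blocks Stra8 in male germ cells, had no count in any library.

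**Figure D5:**
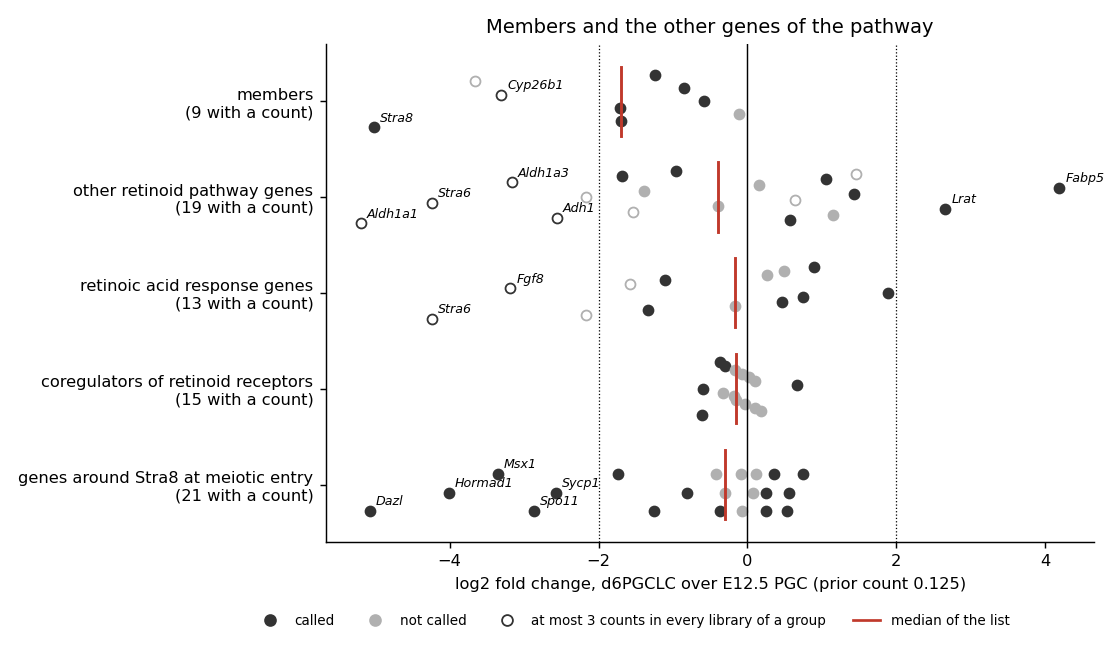
Log2 fold change of d6PGCLCs over E12.5 PGCs for each gene with a count in the member set and in 4 further lists, as fitted, with open symbols for genes within 3 counts in every library of a group, whose fitted values are no bound. Red lines mark the medians as fitted, -1.70 for the members and -0.39, -0.17, -0.15 and -0.30 for the other lists from top to bottom. With such genes at their bound or at 0 the medians are -1.25, 0, 0, -0.15 and -0.30.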

How the data were processed

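Poly(A) RNA of 4 d6PGCLC and 4 E12.5 PGC pools was sequenced by the authors with single-end reads of 100 bases from stranded libraries. They aligned the reads with STAR to GRCm38/mm10 with ERCC sequences, kept 1 isoform of each gene, drawn at random, dropped genes at random where promoters overlapped, and deposited raw counts of uniquely mapped reads on the exons of that isoform. The same deposited table gives a length for each gene, which is another kind of value. Of 4910 genes with 1 GENCODE transcript, 41.7% had a length above that transcript by exactly 40 bases per exon, so that levels per kilobase are somewhat low for genes with many exons. A random isoform can miss reads of other isoforms, and Rxrb was not in the table.

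Symbols and coordinates came from RefSeq (GRCm38.p6) by Entrez identifier, with 21907 of 21950 matched. Totals of 7991437 to 12024841 counts set the precision, and limits cover counting error only. All genes were fitted together with edgeR 4.0.16 in R 4.3.3 (TMM, glmQLFit, glmQLFTest, prior count 0.125, cell type as the only term, no filter on low counts), with Benjamini-Hochberg adjustment over all 21950 genes. A gene was called at an adjusted p of at most 0.05. CPM used TMM-scaled library sizes, and SE came from the information of the fit and the quasi-likelihood variance. A gene with at most 3 counts in each library of a group was taken as at the limit, and its fold as a bound. No pair of libraries of a group agreed within sampling noise (chi-square divided by its degrees of freedom, 3.19 to 20.8). The labels say the pools came from independent experiments. The steps were tested on simulated data.

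The members, gene lists and tests were chosen with earlier results of these data known, so that no p over a list is given. The genes named are the 10 members, list members where a list is described (some are not reported here), and the 5 genes most like Stra8, while Top2b and Hspa1a were named after their values were seen. Results were recomputed with edgeR's likelihood ratio test, with DESeq2 1.42.0, with other scalings, filters on low counts, a prior count of 2, a replicate block, a length offset and leaving out libraries. PGC replicates 2 and 4 were left out together after seeing the data.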

Additional observations from a re-analysis of the deposited data

Results flagged for a closer look

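Rara in E12.5 PGC replicate 3, at 50.9 CPM, lay far from the other PGC pools, which had 43.4 to 43.8 CPM. Of 18 sets of 4 pools examined for such a gap (9 members in both groups) this was 1, and chance gives about 1 in 20. Without this pool the log2 fold change of Rara was -0.52 (edgeR adjusted p = 0.0083), and the call held.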

How the results depend on the processing

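The calls of Stra8, Rara, Rarb, Rarg, Crabp1 and Crabp2 and their direction held in all 19 alternatives, and that of Cyp26b1 in the 17 that could be computed, since the low-count filters removed it and Cyp26a1. Rxra stayed uncalled, and its log2 fold change turned to 0.01 and 0.017 without d6PGCLC replicates 3 and 4 and to 0.066 without PGC replicate 1 (range without each library -0.40 to 0.066). Cyp26a1 passed only with the likelihood ratio test (-3.66 as fitted, adjusted p = 0.0209, range over its alternatives 0.0209 to 0.529, with none given by DESeq2). Members past an absolute log2 fold change of 2 numbered 1 with either filter on low counts, as the filters removed Cyp26b1, and 3 with the likelihood ratio test and without d6PGCLC replicate 3 or 4. Over all genes the lower ones past it fell from 740 to 435 (CPM filter), 383 (filterByExpr) and 382 (prior count of 2), and the higher ones from 712 to 464 (filterByExpr) and 450 (prior count of 2). The CPM filter and filterByExpr left 3 and 2 lower genes of the wider pathway, 2 and 2 lower response genes, and 1 and 0 lower gonadal somatic markers, as fewer genes were tested. Leaving out each library gave 1 to 6 lower coregulators and 3 to 5 higher genes around Stra8, and the cause was not tested. Among genes whose mean reached 1 CPM, the median per-gene shift in log2 fold change from the main fit was -0.0741 to 0.00668 over the settings.

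Same-numbered pools of the groups did not all deviate together (correlations of 0.30, 0.11, -0.04 and 0.04 across 11487 genes), so the numbers were not taken as pairs. With the replicate number as a block, 7 members were lower and 0 higher, Stra8 at -4.98 and Rxra at -0.15, and 3562 genes were called lower and 3708 higher.

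Depth limits Cyp26a1, Cyp26b1 and Stra8 in d6PGCLCs, where 3 counts correspond to 0.249 to 0.383 CPM.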
